A study of Mus musculus with 24 samples.

Results

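Messenger RNA from whole hippocampus was sequenced in 24 mouse libraries, and 7 genes of striatal projection neurons, Penk, Adora2a, Drd1, Drd2, Ppp1r1b, Rgs9 and Tac1, are described here out of 49568 gene symbols counted. They were selected on their CPM in one library, standard-housed WT library 14, which an earlier look at these libraries had found high against the rest, so their level in that library is a description and carries no test. The 22 libraries that passed the study's quality control were used, 6 WT SH, 5 WT EE, 6 KD SH and 5 KD EE. WT mice were C57-Bl/6J, and MSK1 KD mice carried 2 copies of a knock-in allele on that background in which one aspartate of the N-terminal kinase domain of MSK1 is an alanine. The alleles differ in a codon, so counts on the MSK1 gene cannot check the genotype. Both genotypes were kept as separate homozygous lines, and the animals were naive males labelled 12 weeks of age. SH animals lived in standard cages. EE animals were born and raised in large cages with a running wheel, toys and ladders that were moved and renewed every week, where several dams gave birth together. The library codes are those of the sample labels. The labels do not state that each library is a separate animal, so p-values here measure the spread between libraries.

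The striatum is a set of nuclei under the cortex whose main cells are GABAergic spiny projection neurons driven by dopamine. Direct-pathway cells carry the D1 receptor (Drd1) and make substance P and neurokinin A from Tac1, and indirect-pathway cells carry the D2 receptor (Drd2) and an adenosine receptor (Adora2a) and make enkephalins from Penk. Both kinds hold much DARPP-32 (Ppp1r1b), an inhibitor of protein phosphatase 1 that is switched on by cAMP signaling, and RGS9 (Rgs9), which shortens signaling by inhibitory G proteins. The hippocampus uses several of the same genes in its own interneurons and granule cells, so a low level in a hippocampal library is usual.

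Promoter sequences were looked at for sites of CREB, the factor that MSK1 can phosphorylate, because Penk and Tac1 are known cAMP-responsive genes. RefSeq windows of 250 bases before to 50 after an annotated start (GRCm38.p6) were given for 4 of the 7 genes, and a first window of each is shown 5′ to 3′ on the gene's own strand to let the presence and absence of the site be read. Capitals mark the CRE half-site TGACG, read on either strand, so that CGTCA marks it on the other strand.

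Tac1, chr6:7554811-7555110, plus strand: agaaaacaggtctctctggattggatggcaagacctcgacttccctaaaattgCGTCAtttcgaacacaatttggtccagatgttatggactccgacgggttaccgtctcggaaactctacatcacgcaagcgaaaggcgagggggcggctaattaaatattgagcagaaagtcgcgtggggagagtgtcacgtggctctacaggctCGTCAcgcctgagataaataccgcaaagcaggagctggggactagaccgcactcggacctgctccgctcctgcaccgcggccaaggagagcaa

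Drd1, chr13:54055609-54055908, minus strand: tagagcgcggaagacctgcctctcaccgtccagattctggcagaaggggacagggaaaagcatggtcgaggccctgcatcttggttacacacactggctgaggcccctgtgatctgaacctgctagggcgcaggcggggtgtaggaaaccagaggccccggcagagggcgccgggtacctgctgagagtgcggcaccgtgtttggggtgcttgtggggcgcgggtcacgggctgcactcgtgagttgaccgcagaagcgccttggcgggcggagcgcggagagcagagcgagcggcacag

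Drd2, chr9:49340153-49340452, plus strand: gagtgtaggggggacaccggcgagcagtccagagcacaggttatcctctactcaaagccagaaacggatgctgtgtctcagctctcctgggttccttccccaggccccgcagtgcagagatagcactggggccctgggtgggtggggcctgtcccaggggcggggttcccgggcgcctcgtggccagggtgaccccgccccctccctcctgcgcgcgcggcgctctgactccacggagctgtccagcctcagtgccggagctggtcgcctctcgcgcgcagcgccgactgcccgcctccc

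Rgs9, chr11:109298132-109298431, minus strand: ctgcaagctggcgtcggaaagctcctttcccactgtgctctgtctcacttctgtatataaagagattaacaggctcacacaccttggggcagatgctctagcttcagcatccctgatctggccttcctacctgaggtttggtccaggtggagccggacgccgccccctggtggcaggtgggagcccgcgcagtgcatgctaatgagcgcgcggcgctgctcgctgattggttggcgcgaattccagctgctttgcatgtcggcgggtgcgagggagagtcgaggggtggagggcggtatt

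The Tac1 window held 2 half-sites, at 197 and 43 bases before the start, and the windows of Drd1, Drd2 and Rgs9 held 0. A second Drd1 window also held 0. A half-site was in 20.8% of all 32851 windows of this length, and the full palindrome TGACGTCA, which contains the half-site on both strands, was in 1.79% of them and in 0 of the member windows. The Tac1 window held 1 E-box CACGTG, found in 7.15% of windows, and the Rgs9 window held 1 TATAAA, found in 13.6%. A match is a string of letters and not a bound site, and the starts used for Drd2 and Rgs9 lay just outside the GENCODE M21 gene models.

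Each gene was counted in each of the 22 libraries, with 12 to 3229 counts on a member in a library. Levels are given as CPM, the count scaled to the library's total on genes, corrected by the trimmed mean of M values (TMM). Total counts on genes were 8911999 to 56752074 over the 22 libraries, so 3 counts correspond to 0.0529 to 0.337 CPM. No 2 libraries had identical counts. The 9 hippocampal marker genes, among them Prox1 of dentate granule cells and Wfs1 of CA1, were above 4.5 CPM in every library and summed to 1298 CPM in library 14 against 941 to 1445 in the others. Library 14 therefore carried its labelled tissue. Library 12, also WT SH, stood apart for thalamic genes, with 402 CPM summed over 8 genes against 79.9 to 138 elsewhere.

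Penk, the precursor of the enkephalins (chr4:4133531-4138819, minus strand), was at 57.0 CPM in library 14, from 1772 counts with an exact 95% Poisson interval of 54.4 to 59.7 that covers counting error only. The other 5 WT SH libraries were at 17.4, 17.6, 19.2, 22.2 and 25.1 CPM. The 5 WT EE libraries were at 18.8, 21.3, 22.4, 22.4 and 24.6, the 6 KD SH libraries at 18.1 to 22.3 with a median of 20.3, and the 5 KD EE libraries at 18.4, 21.7, 23.8, 25.3 and 28.6. The 4 groups overlapped without library 14, which lay 1.99 times above the next library. An antisense gene, A830012C17Rik, overlaps Penk, and reads of the pair cannot be told apart by strand, but it had 0 counts in library 14 and at most 0.0691 CPM elsewhere.

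Tac1, the precursor of substance P (chr6:7554879-7565834, plus strand), was at 16.5 CPM in library 14 (513 counts). The other WT SH libraries lay close together, at 6.09, 6.44, 6.47, 6.82 and 6.82 CPM. In the other groups it ranged from 6.40 to 9.12 in WT EE, 5.55 to 10.4 in KD SH and 5.48 to 8.58 in KD EE. All of these were under library 14 and all 3 ranges crossed that of the other WT SH libraries.

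Adora2a, the adenosine receptor of indirect-pathway cells (chr10:75316877-75334784, plus strand), had the largest ratio of the 7 genes. It was at 9.07 CPM in library 14 (282 counts, 8.05 to 10.2), 5.70 times the median of 1.59 CPM over the other 21. The other WT SH libraries were at 1.29, 1.31, 1.69, 1.77 and 2.30 CPM, the WT EE libraries at 1.45, 1.52, 1.59, 2.13 and 2.18, and the KD SH libraries at 1.24 to 1.83 with a median of 1.60. The KD EE libraries were at 1.23, 1.31, 1.42, 1.87 and 5.38. The last value belonged to library 8, from 166 counts with an interval of 4.59 to 6.26, and no other library but 14 exceeded 2.30. In library 8 the other receptors were within the range of the remaining libraries, with Drd1 at 5.90 and Drd2 at 3.66 CPM.

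Drd1, the dopamine receptor of direct-pathway cells (chr13:54051183-54055705, minus strand), was at 12.7 CPM in library 14 (394 counts, 11.5 to 13.99). It was at 5.06 to 6.80 in the other WT SH libraries, 5.41 to 6.59 in WT EE, 4.10 to 5.62 in KD SH and 3.40 to 6.35 in KD EE. Drd2, the receptor of indirect-pathway cells (chr9:49340627-49408177, plus strand), was at 9.14 CPM in library 14 (284 counts, 8.11 to 10.3). It was at 3.11 to 4.44 in the other WT SH libraries, 2.19 to 3.20 in WT EE, 2.54 to 3.94 in KD SH and 2.60 to 4.60 in KD EE. Markers of both pathways thus stood out in the same library, 2.29 times the median of the others for Drd1 and 2.94 times for Drd2.

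Rgs9, the G protein regulator (chr11:109225355-109298129, minus strand), was at 35.9 CPM in library 14 (1114 counts, 33.8 to 38.0). Elsewhere it was closely spaced, with 13.6 to 17.3 CPM in the other WT SH libraries, 15.8 to 17.6 in WT EE, 12.6 to 18.1 in KD SH and 12.7 to 17.1 in KD EE. Library 14 was 1.98 times the highest of these.

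Ppp1r1b (chr11:98348404-98357796, plus strand) behaved differently. It was at 59.1 CPM in library 14 (1838 counts, 56.5 to 61.9), above the other WT SH libraries at 28.8 to 42.1. In 3 enriched libraries it was higher, so library 14 was only the 4th of 22. The WT EE libraries were at 27.4, 30.2, 53.4, 63.1 and 71.2 CPM, the KD EE libraries at 30.7, 42.1, 48.5, 54.0 and 66.3, and the KD SH libraries at 28.1 to 51.3 with a median of 32.7. Values within each enriched group thus spread over more than the gap between group medians. The antisense gene 1700003D09Rik overlaps Ppp1r1b and was at no more than 0.804 CPM in any library.

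**Figure D1:**
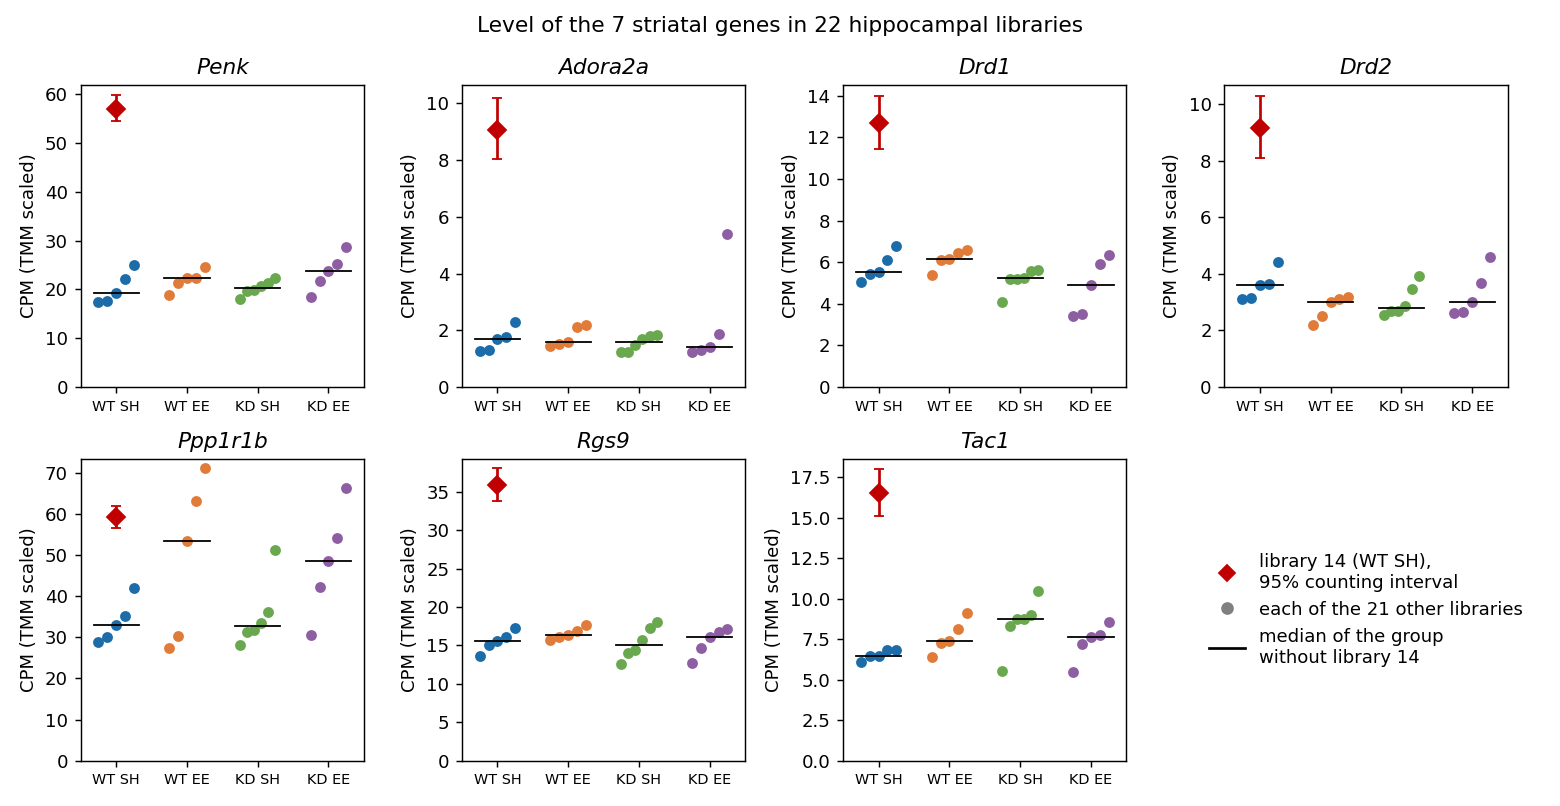
CPM of each gene in each of the 22 libraries by group, with library 14 as a red diamond (bars, 95% counting interval) and a line at the median of each group without it. Library 14 lies above every other library for 6 genes, and for Ppp1r1b the libraries of both enriched groups spread widely and 3 of them lie higher.

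Over the 7 genes, the median log2 ratio of library 14 to the median of the other 21 libraries was 1.19, with single genes between 0.75 (Ppp1r1b) and 2.51 (Adora2a). The same median computed for each other library lay between -0.24 and 0.24. Of the 7 genes, 6 were highest in library 14, and 6 were at least 2 times the median, where 5.99% and 0.687% of 18482 genes with enough counts met these conditions. The genes were chosen for this, so nothing is read from the shares. Library 14 had all 7 genes above 1.5 times the median of the others. Elsewhere only Ppp1r1b, in libraries 8, 16, 17, 33A and 36A, and Adora2a, in library 8, passed that mark.

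Between genes, levels were compared per kilobase of exon. At the median of the 21 other libraries, Penk and Ppp1r1b came first, at 13.04 and 12.04 CPM per kb, and their ranges of 10.6 to 17.5 and 9.34 to 24.3 overlapped. Rgs9 (2.52), Tac1 (2.17), Drd1 (1.53), Drd2 (1.22) and Adora2a (0.520) followed, well under the range of Ppp1r1b, and the range of each of these 5 overlapped that of the next. In library 14 the level per kb was 34.9 for Penk, 20.2 for Ppp1r1b, 5.61 for Rgs9, 4.86 for Tac1, 3.59 for Drd2, 3.50 for Drd1 and 2.96 for Adora2a. As a difference from the median of the others, library 14 held 21.9 CPM per kb more Penk, 8.16 more Ppp1r1b, 3.09 more Rgs9, 2.68 more Tac1, 2.44 more Adora2a, 2.37 more Drd2 and 1.97 more Drd1. In bulk RNA, more cells of a type and more RNA per cell cannot be told apart.

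Further striatal genes were also high in library 14, though less uniformly. Of 28 listed, 27 were in the files, 25 of these were above the median of the other libraries in library 14, and 16 were highest there. Over 18482 genes with enough counts, 5.99% were highest there, and the share above the median was not computed. The lead of the 16 ran from 1.01 times the next library (Gng7) to 2.61 times (Drd3, from 17 counts). For Adcy5, Pde1b and Arpp21 it was 1.02 to 1.04 times. Gpr6, a receptor of indirect-pathway cells, was at 3.19 CPM against 0.862 to 2.25 in the others, and Slc35d3, which is needed for D1 receptor traffic, at 2.09 against 0.230 to 1.57. Foxp1, a transcription factor of spiny neurons, was at 91.1 against 52.7 to 74.2, and the cyclic nucleotide phosphodiesterase Pde10a at 139 against 75.5 to 123. The D3 receptor Drd3 was at 0.547 against at most 0.209 CPM, and Isl1, a factor of direct-pathway and cholinergic cells, at 1.55 against at most 1.14.

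Other striatal genes did not stand out. Ptpn5, the striatal-enriched phosphatase STEP, was at 157 CPM against a median of 158, and Lrrc10b was at 41.8 against a median of 51.1. Pdyn, the precursor of dynorphin in direct-pathway cells and in granule cells, was at 15.3 against 11.4 to 17.4. Bcl11b was at 175 against 116 to 187, and Rasd2 at 75.1 against 61.0 to 82.7. Over the 23 genes with a median of at least 0.5 CPM, the median log2 ratio was 0.39, against 1.19 for the 7 genes. As a sum, the list reached 1848 CPM in library 14 and 1425 to 1664 in the others.

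**Figure D2:**
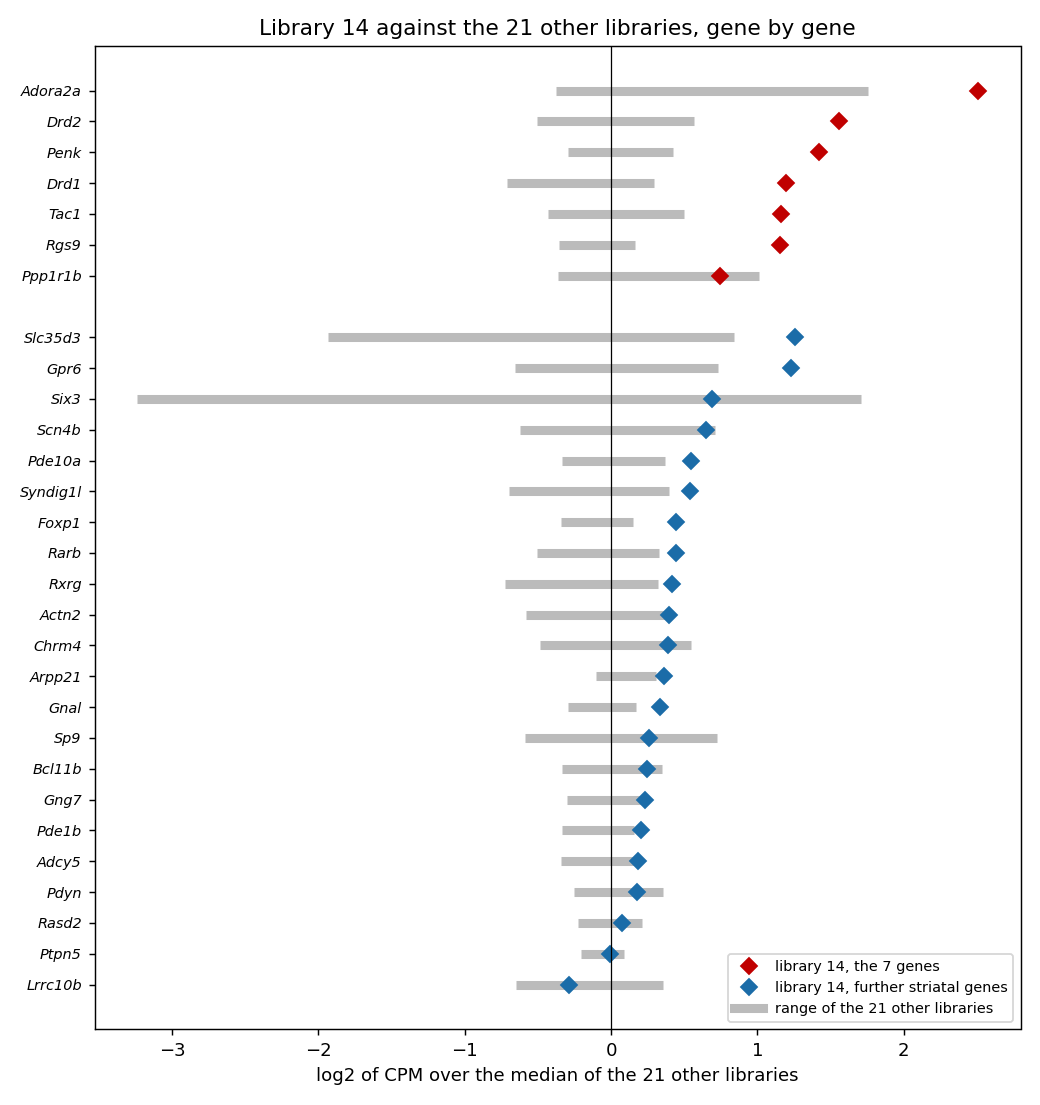
Log2 of CPM over the median of the 21 other libraries, for library 14 (diamonds) and as the range of the others (grey bars), for the 7 genes and 22 further striatal genes with a median of at least 0.5 CPM. Adora2a reaches 2.51 and Slc35d3 1.26, and Ptpn5 and Lrrc10b lie inside the range of the others.

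Lists for neighboring tissues and cell types were read in the same way. The 4 cholinergic genes, which mark striatal interneurons and septal projection neurons, summed to 3.73 CPM in library 14 and 0.438 to 1.73 elsewhere. Chat, which makes acetylcholine, was at 0.901 CPM against at most 0.232, and the choline transporter Slc5a7 at 2.25 against 0.438 to 1.152. Lhx8 was at 0.322 (10 counts) against at most 0.101, but Slc18a3, at 0.257 (8 counts), was under the 0.378 of library 5. Chat, Slc18a3 and Lhx8 had medians of at most 0.0745 CPM in the other libraries, near the limit of detection. The GABAergic list summed to 1009 CPM against 799 to 988, with Gad2 at 219 against 130 to 209 but Gad1 at 347 within 303 to 384. The amygdala list summed to 72.5 CPM against 52.9 to 70.2, although none of its 6 genes was highest in library 14. Library 14 lay inside the range of the others for neocortex (251 within 208 to 323), thalamus (96.9 within 79.9 to 402), septum (88.3 within 67.1 to 122) and oligodendrocytes (5786 within 4603 to 6866). The hypothalamic list was low in all libraries, at 1.64 CPM in library 14 and 2.11 to 4.48 elsewhere.

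**Figure D3:**
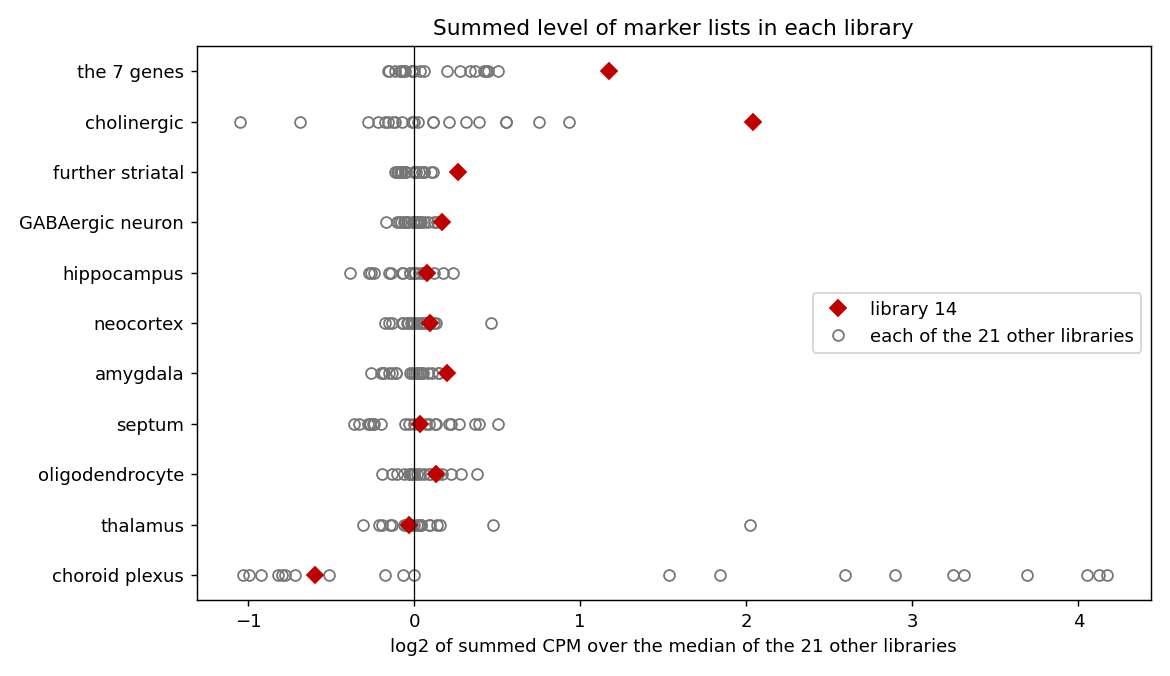
Log2 of the summed CPM of each marker list over the median of the 21 other libraries, with library 14 as a red diamond and each other library as a circle. Library 14 lies above the others for the 7 genes, the cholinergic, further striatal, GABAergic and amygdala lists, and inside their range for the other lists plotted, while the hypothalamic list, under the others in library 14, is not plotted and libraries rich in choroid plexus genes lie far to the right on the last line.

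The 20 genes that most exceeded the next library in library 14 were mainly of low level or striatal. The first was Serpina9, at 1.38 CPM against at most 0.251, followed by Rbp3 (1.03 against 0.190), Gm11427 (1.55 against 0.438), Cd4 (1.55 against 0.605) and Ptprv (1.35 against 0.634). The 6 members Penk, Drd2, Rgs9, Drd1, Adora2a and Tac1 were among the 20, as were Sh3rf2 and Slc5a7 of the lists. Library 14 had 12 genes at over 1.5 times the next library, where other libraries had 0 (library 4) to 297 (library 9), so a set of genes held above all others was not particular to library 14 in size. Of the 10 genes that fell furthest under the lowest of the others, each was at most 2.25 CPM in library 14, led by Clic3 at 0.676 against at least 1.24.

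With library 14 set aside, the 7 genes did not vary together. Over the 22 libraries the Pearson correlation of log2 CPM between 2 members was 0.159 to 0.819 for the 21 pairs, with a median of 0.582. Over the 21 without library 14 it was -0.469 (Drd2 and Tac1) to 0.512 (Adora2a and Rgs9), with a median of 0.109, and 7 pairs were below 0. These points share the libraries and their scaling and are given as a description. The members were chosen for a high level in library 14, so nothing is read from the higher values with it. The genes most like the mean of the members changed as well. Over 22 libraries the 10 first included Pabpc1 (r = 0.711), Sh3rf2 (0.667), Cd4 (0.660) and Gpr6 (0.640), of which Sh3rf2 and Gpr6 were on the striatal list. Over the 21, the 10 first held no listed gene and were led by Pomgnt1 (0.830), Ccdc125 (0.826) and Sult1c2 (0.820). For single members over the 21, the nearest genes were Gm43327 for Penk (0.690), Glrx3 for Tac1 (0.818), Rnf8 for Adora2a (0.716), Gm32200 for Drd1 (0.828), Slc6a7 for Drd2 (0.782), AU040320 for Rgs9 (0.882) and Ace for Ppp1r1b (0.969).

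Ppp1r1b followed the choroid plexus genes. The choroid plexus, the epithelium that makes cerebrospinal fluid, lies against the hippocampus and can be carried into a dissected sample, which was not tested here. The 15 choroid plexus genes summed to 247 to 2836 CPM in WT SH, 236 to 8160 in WT EE, 229 to 4443 in KD SH and 469 to 8455 in KD EE. None of the 15 was at 0 in any of the 22 libraries, and Ttr, a thyroid hormone carrier that the epithelium secretes, ran from 16.8 to 5105 CPM. Over the 21 libraries other than 14, the correlation of log2 Ppp1r1b with the log2 of this sum was 0.955, against -0.0434 (Drd2) to 0.394 (Adora2a) for the 6 other members. Library 14 was poor in these genes, at 309 CPM, with all 15 under the median of the others.

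Read against libraries of like choroid plexus level, library 14 lay above the others for Ppp1r1b too. The level of Ppp1r1b in library 14 was among the values that chose the genes, so this is a description and carries no test. A line of log2 Ppp1r1b on the log2 sum over the 21 libraries left residuals of -0.24 to 0.24, and library 14 lay 0.95 above it. In the 11 other libraries with a sum of at most 469 CPM, Ppp1r1b was at 27.4 to 36.2 CPM with a median of 30.7, and library 14 was 1.93 times that median. In the 10 libraries with a sum of 1359 or more it was at 35.3 to 71.2 CPM. These 2 sets were formed after the sums were seen and are not groups of the study. The other 6 members, in contrast, had overlapping ranges in both sets, such as 17.4 to 24.6 and 17.6 to 28.6 CPM for Penk.

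**Figure D4:**
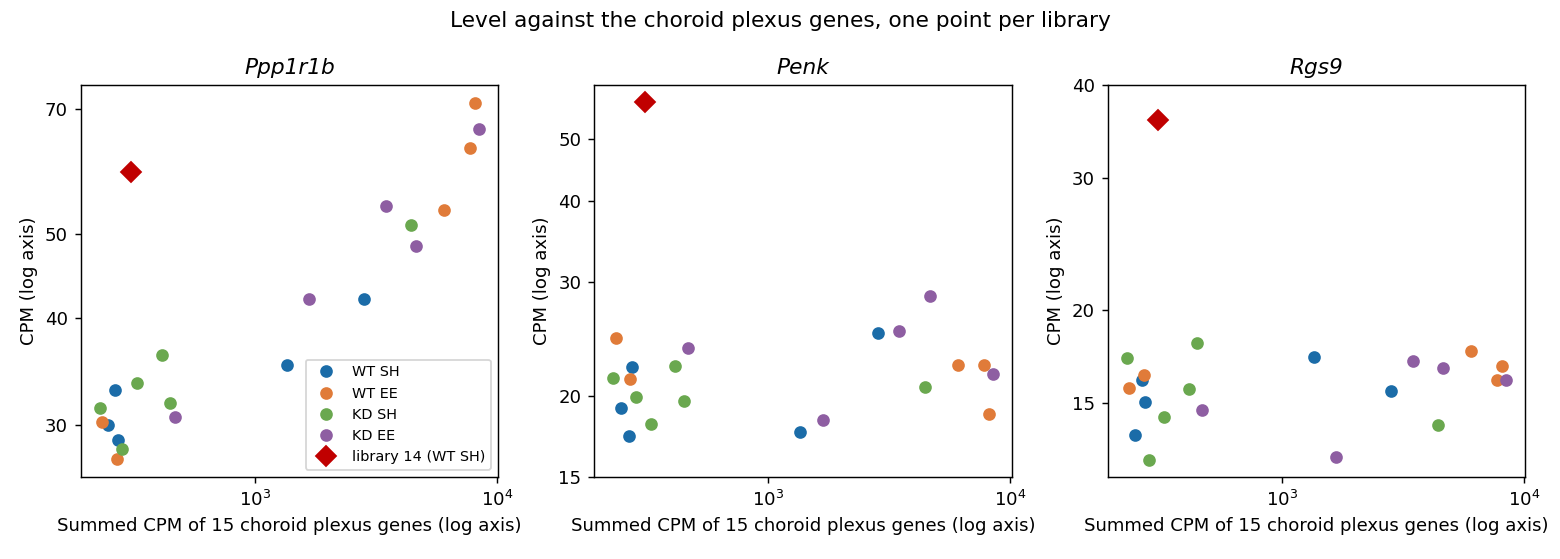
CPM of Ppp1r1b, Penk and Rgs9 against the summed CPM of 15 choroid plexus genes in each of the 22 libraries, both axes on a log scale, colored by group. Ppp1r1b climbs with the choroid plexus genes in the 21 other libraries and library 14 lies 0.95 (log2) above the line fitted to them, which is not drawn, whereas Penk and Rgs9 stay flat apart from library 14.

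The effect of enrichment in WT was tested in the 17 libraries of the study's own expression table, of which 5 were WT SH, 3 WT EE, 5 KD SH and 4 KD EE. The authors had chosen these libraries in part by how well each correlated with its own group, so the p-values rest on a selected spread. Calls needed an adjusted p up to 0.05 by edgeR's quasi-likelihood test and a log2 fold change beyond 0.38 either way. The members were chosen on library 14, which is in WT SH, so the member count and member p-values of this fit carry no test. For the members, the fit without library 14, given below, is the one to read. Of the 7 genes 1 was called, Ppp1r1b, against 3.55% of all 18701 genes tested. On the log2 scale it rose by 0.75 ± 0.17 (SE, edgeR adjusted p = 0.0108), and in the 3 WT EE libraries it was at 53.4, 63.1 and 71.2 CPM. The other members had estimates below 0 that did not pass, from -0.69 ± 0.28 for Drd2 (adjusted p = 0.238) and -0.65 ± 0.54 for Adora2a (adjusted p = 0.663) to -0.05 ± 0.24 for Tac1 (adjusted p = 0.954).

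Leaving out library 14 changed those signs for 5 of the 6. For Tac1 it was not alone, since 2 of the 17 fits that each left out 1 library changed the sign. Without library 14, estimates were 0.36 ± 0.37 for Adora2a, 0.34 ± 0.14 for Tac1, 0.14 ± 0.12 for Penk, 0.12 ± 0.12 for Rgs9 and 0.06 ± 0.16 for Drd1, and Drd2 stayed below 0 at -0.27 ± 0.17. None of these 6 passed, with adjusted p from 0.326 (Tac1) to 0.951 (Drd1). Ppp1r1b rose by 0.98 ± 0.12 (adjusted p = 3.33e-05), and again 1 of 7 was called against 3.01% of 18648 genes. The SE of the other members was smaller without the library in this comparison and in KD, where library 14 has no part, because one estimate of the spread is shared by the groups. For Adora2a in KD it was 0.51 with and 0.31 without library 14.

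In MSK1 KD, Ppp1r1b was again the 1 of 7 called, against 1.74% of all genes. It was at 42.1, 48.5, 54.0 and 66.3 CPM in KD EE against 28.1 to 36.2 in the 5 KD SH libraries and rose by 0.72 ± 0.16 (adjusted p = 0.0166). Adora2a had an estimate of 0.71 ± 0.51 (adjusted p = 0.644) that rested on library 8, since without that library it was -0.02. Penk was at 0.23 ± 0.25 (adjusted p = 0.782), Drd2 at 0.09 ± 0.26, Drd1 at 0.02 ± 0.21, Rgs9 at 0.02 ± 0.20 and Tac1 at -0.05 ± 0.23. These did not pass.

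The rise of Ppp1r1b moved with choroid plexus genes in both genotypes. In these 17 libraries the choroid plexus genes summed to 247 to 1359 CPM in WT SH, 6057 to 8160 in WT EE, 229 to 448 in KD SH and 1683 to 8455 in KD EE, and all 15 were called higher in both comparisons, where the median log2 change was 4.29 (WT) and 4.13 (KD). The part of these genes in the rise of Ppp1r1b was not tested beyond a fit that holds them. With their mean log2 CPM as a covariate, Ppp1r1b was at 0.29 ± 0.39 (edgeR adjusted p = 0.9995) in WT and 0.31 ± 0.34 (adjusted p = 0.9999) in KD and was not called. In that fit 0 of all 18701 genes were called in either comparison. Within each genotype of these 17 libraries the sums of the 2 housings did not overlap, so the fit cannot separate housing from choroid plexus level. The 22 libraries add choroid-poor WT EE libraries 31B (27.4 CPM of Ppp1r1b) and 35A (30.2), KD EE library 9 (30.7) and the choroid-rich SH libraries 2 (51.3) and 12 (42.1). Over the 22, Ppp1r1b was at 0.37 (adjusted p = 0.698) in WT and 0.47 (adjusted p = 0.517) in KD, and 0 of 18482 genes were called in either comparison. In the 17 libraries, the call of Ppp1r1b in WT was lost without library 33A (0.64, adjusted p = 0.0708) and the call in KD without library 36A (0.60, adjusted p = 0.130).

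The effect of genotype in standard housing was called for 0 of 7 genes, and for 0.0% of all genes, by edgeR. At an unadjusted p under 0.05 there were 2 members, Drd1 and Drd2, and 926 genes. Library 14, on which the members were chosen, is in WT SH, so this member count carries no test. DESeq2 called 0 members and 3 genes. All 7 estimates were above 0 with library 14, led by Adora2a (0.95 ± 0.47), Drd2 (0.68 ± 0.24), Drd1 (0.52 ± 0.19), Penk (0.40 ± 0.23) and Rgs9 (0.32 ± 0.19), each with an adjusted p of 0.881. Without it, 2 were above 0, Drd2 at 0.25 ± 0.15 and Drd1 at 0.22 ± 0.14, while Adora2a was at -0.06 ± 0.33, Penk at -0.08 ± 0.11, Rgs9 at -0.01 ± 0.11 and Tac1 at -0.31 ± 0.12 (adjusted p = 0.846 for Tac1). Without library 14, 0 members and 0.0% of genes were called here too. At an unadjusted p under 0.05 there were then 1 member, Tac1, with its estimate below 0, and 951 genes.

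**Figure D5:**
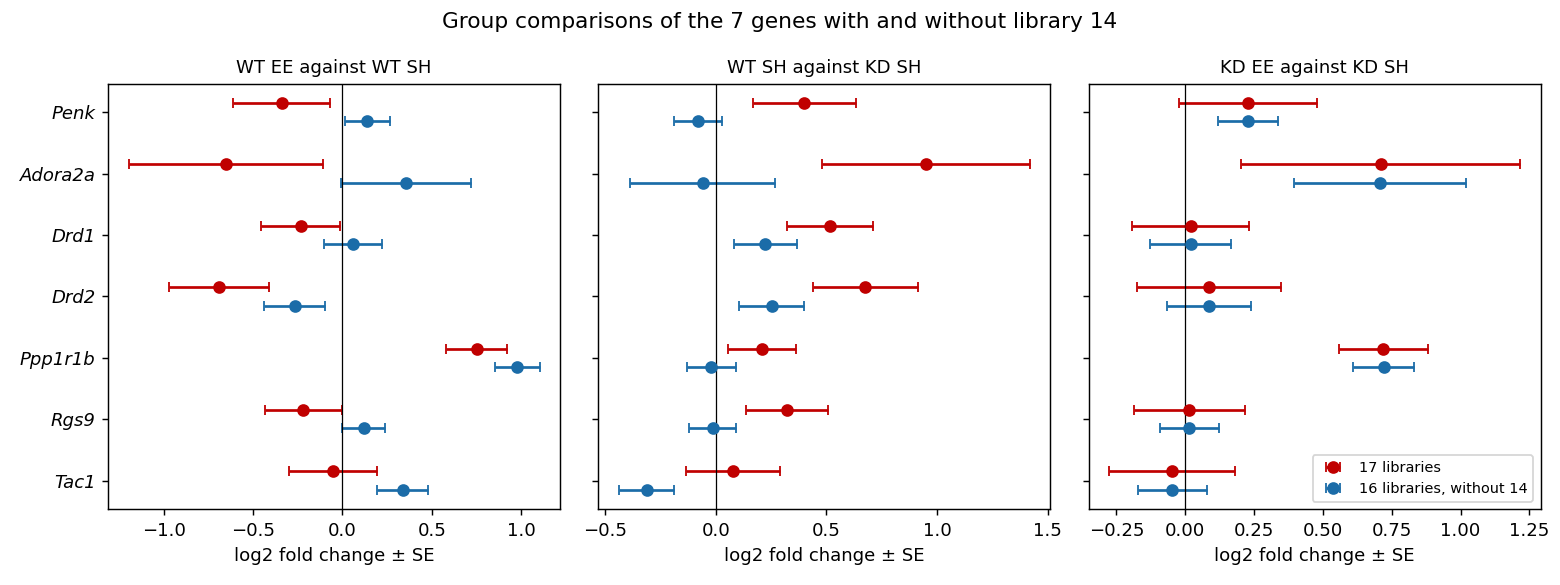
Log2 fold change with its SE for each gene in 3 comparisons, from 17 libraries (red) and from 16 without library 14 (blue). The estimates of WT EE against WT SH and of WT SH against KD SH move toward or across 0 without library 14 for most members, those of KD EE against KD SH stay in place with shorter bars, and Ppp1r1b lies to the right of 0 in both enrichment comparisons.

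Between genotypes in enriched housing 0 of 7 genes were called by edgeR, against 0.00535% of all genes, and 0 members had an unadjusted p under 0.05. Adora2a was at -0.41 ± 0.57 (adjusted p = 0.939), and without library 8 at 0.31. The interaction of genotype and housing, which compares the effect of enrichment in WT and KD, was called for 0 members and 0.0% of genes, with 0 members and 1031 genes at an unadjusted p under 0.05. DESeq2 called 0 members in either comparison, with 0 members at an unadjusted p under 0.05 between the genotypes and 1 in the interaction. Library 14 has a part in the interaction, so its member counts carry no test. Over all genes DESeq2 called 18 and 2, with 1314 and 1204 at an unadjusted p under 0.05. For Adora2a the interaction was -1.36 ± 0.74 (adjusted p = 0.875) with library 14 and -0.35 ± 0.48 (adjusted p = 0.936) without it, and for Drd2 it was -0.78 ± 0.38 and -0.35 ± 0.23.

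The partners of these genes in signaling were read from a list of 27 receptors, peptide-processing enzymes and members of the G protein and cAMP pathway, of which 25 had enough counts to be tested. By edgeR and by DESeq2, 0 of them were called in any of the 5 comparisons. By edgeR 5 of them had an unadjusted p under 0.05 in WT EE against WT SH, 1 in KD EE against KD SH, 2 in WT SH against KD SH, 1 in WT EE against KD EE and 0 in the interaction, where 2560, 2121, 926, 1196 and 1031 of all 18701 genes did. In WT EE against WT SH 1 of 25 had an estimate above 0, with a median log2 fold change of -0.14 where the median of all genes was -0.0024. Without library 14 it was 3 of 25 with a median of -0.10, with 22 libraries 5 of 25 with a median of -0.08, and with the choroid plexus covariate 7 of 25 with a median of -0.17. In KD EE against KD SH 11 of 25 were above 0 with a median of -0.02.

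In library 14 itself, 8 of the 27 partners were highest of the 22 libraries. They were the adenylyl cyclase Adcy5 (197 CPM against 137 to 193), the G protein subunits Gnal (172 against 111 to 153) and Gng7 (224 against 155 to 222), the RGS9 anchor Rgs7bp (313 against 212 to 308), Pde1b, Pde10a, Drd3 and the substance P receptor Tacr1 (3.35 against 1.43 to 3.18). Over 18482 genes with enough counts, 5.99% were highest in library 14. Of the 8 partners, 6 were also on the striatal list, and Rgs7bp and Tacr1 were not. Those inside the range of the others included the delta opioid receptor Oprd1 (13.2 within 9.33 to 19.5), the A1 receptor Adora1 (210 within 181 to 254), the catalytic subunit of protein kinase A Prkaca (182 within 152 to 195) and the phosphatase Ppp1ca that DARPP-32 inhibits (129 within 113 to 142).

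Of the further striatal genes 25 were tested, and 0 were called in WT EE against WT SH, with 6 at an unadjusted p under 0.05. Of all 18701 genes, 664 were called and 2560 had such a p. DESeq2 called 0 of the list and 729 of all genes. Without library 14, 4 of the list and 2078 of 18648 genes had such a p by edgeR. The median log2 fold change of the list was -0.17 with library 14 and -0.09 without it. Without library 14, Sh3rf2, a scaffold protein, was called higher (4.16 ± 0.49, adjusted p = 1.74e-05), and with it the estimate was 1.27 ± 0.74 (adjusted p = 0.480). In KD EE against KD SH it was called higher with library 14 (3.61 ± 0.91, adjusted p = 0.0406). Sh3rf2 was at 2.51 CPM in library 14, at most 0.419 in the other WT SH libraries and up to 1.69 in WT EE library 16. It was not called in either comparison with the choroid plexus covariate or with 22 libraries, library 14 included in both. In those fits 0 of all genes were called in these 2 comparisons. The levels of Sh3rf2 were near the limit of detection in most libraries.

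Genes called lower in WT EE than in WT SH numbered 13 with library 14 and 6 without it, and none was a member. Leaving out another single library gave 2 (without WT EE library 17) to 63 (without WT EE library 33A). Library 14 was the highest WT SH library for A730056A06Rik, Dlx5, Kcnn3, Lhx9 and Neurod6, and none of these 5 was called without it. Of the 8 genes for which another library was highest, 4 (B3gat2, Hrk, Ndp and Tnc, named after their values were seen) lost their call as well. The estimates of A730056A06Rik (-0.81 and -0.77 without library 14), Kcnn3 (-0.43 and -0.40) and Lhx9 (-0.40 and -0.36) moved little. Neurod6, a factor of pyramidal neurons, was at 239 CPM in library 14 against at most 195 in the other WT SH libraries, and its estimate went from -0.41 (adjusted p = 0.0130) to -0.33 (adjusted p = 0.0339), under the fold threshold. Dlx5, a factor of forebrain GABAergic neurons, was at 4.87 CPM on the scale of the 17 libraries, the highest of WT SH, and went from -0.55 (adjusted p = 0.0379) to -0.49 (adjusted p = 0.106).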

How the data were processed

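Poly-A RNA libraries of whole hippocampus were sequenced from both ends in the 24 samples. Per the labels and the methods, the authors trimmed reads, placed them on GRCm38 by STAR 2.5, took HTSeq totals per gene without regard to strand, and deposited whole-number counts per gene for each library. They also deposited a table of 17 libraries whose signal is the count divided by a DESeq size factor, having set aside libraries 33B and 34B for ribosomal RNA or low yield and 5 more (2, 9, 12, 31B and 35A). The paper gives poor correlation with the rest of the group as the ground for removing libraries beyond those that failed quality control. The counts are unstranded as the kit does not mark strand. Fragments outside single genes, 14.1 to 18.6% of each of the 22 libraries, stayed out of totals.

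Tests used raw counts of 17 libraries (13003876 to 54292242 each) in edgeR 4.0.16 (R 4.3.3), with filterByExpr, TMM scaling, glmQLFit and glmQLFTest on 4 group means and Benjamini-Hochberg adjustment over all genes. DESeq2 1.42.0 was an alternative. The pipeline was tested on simulated data. Levels used 22 libraries and log2 values a prior count of 2. Gene positions are GENCODE M21 on GRCm38 and promoters RefSeq. Python 3.11.15 and matplotlib 3.10.9 drew the figures.

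The 7 genes, the gene lists and the tests were chosen with earlier results of these data known. Named genes were the 7 genes, listed genes, the 20 with the largest ratio of library 14 over the highest other library (at least 1 CPM in library 14), the 10 with the smallest ratio to the lowest (at least 1 CPM in each other library), the 10 most like the mean of the 7 with and without library 14, the 3 most like each member, and genes called lower in WT EE with library 14 highest in WT SH. Samples were grouped by the labels. Alternatives left out each library, used 22 or 24 libraries or only numbered ones, other scalings, filters, tools and thresholds, only the groups compared, or a choroid plexus covariate. The values of 1 gene of the striatal list are not reported here.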

Additional observations from a re-analysis of the deposited data

Results flagged for a closer look

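In 28 sets of values, 7 genes in 4 groups, the highest or lowest library was tested for its gap to the next against the whole range of its group (Dixon's 95% limit), which chance passes in about 1 of 20 groups. It passed in 9. Library 14 of WT SH was the highest for 6, Penk (57.0 CPM), Adora2a (9.07), Drd1 (12.7), Drd2 (9.14), Rgs9 (35.9) and Tac1 (16.5), which is the selection itself. Adora2a in library 8 of KD EE (5.38 CPM, next 1.87), Ppp1r1b in library 2 of KD SH (51.3 CPM, next 36.2) and, as the lowest, Drd1 in library 6 of KD SH (4.10 CPM, next 5.18) were not chosen for it. Library 2 was also the one with the most choroid plexus RNA in KD SH, at 4443 CPM summed, and whether this set its Ppp1r1b level was not tested.

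Among the 2 libraries that failed the study's quality control, Rgs9 was at 80.7 CPM in WT EE library 33B (1112 counts), above the highest of the 22 others (35.97 CPM on the same scale). The 6 other members were at 14.5 (Penk), 2.18 (Adora2a), 7.98 (Drd1), 2.69 (Drd2), 31.9 (Ppp1r1b) and 5.66 CPM (Tac1), each under its highest value in the 22. This value stood in data outside the comparisons. In library 34B the 7 genes had 1 count in all, on Penk.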

How the results depend on the processing

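The number of members highest in library 14 was 6 with DESeq2 size factors, total counts, 17 libraries or the authors' table, 7 against the 5 other WT SH libraries and 5 of 24 libraries. The median log2 ratio stayed between 1.16 and 1.196 but for 1.34 against the other WT SH libraries. The number of members called in WT EE against WT SH and in KD EE against KD SH, 1 each, was 0 with 22 libraries, 22 without library 14, 24 libraries, no lettered libraries, and the choroid plexus covariate with or without library 14 (the last added after seeing the data). With 22 libraries or the covariate, with or without library 14, 0 of all genes were called in these 2 comparisons. With 24 libraries 1 of 18287 genes was called in WT and 0 in KD. Without lettered libraries, 706 of 18901 genes were called in WT and 78 in KD. Leaving out one library gave 0 to 1 members called, where 504 to 710 of all genes were called in WT and 190 to 423 in KD. Over 29 alternatives Ppp1r1b stayed above 0 and was called in 22 in each genotype, at adjusted p of 2.4e-06 to 0.9995 in WT and 2.47e-06 to 0.9999 in KD. In the other 3 comparisons 0 members were called throughout. Uncalled estimates often changed sign. In WT EE against WT SH, with 22 libraries but 14, Penk was at 0.11, Adora2a 0.0922, Drd1 0.0799, Rgs9 0.0876 and Tac1 0.22. With the covariate Drd1 was at 0.0249 and Tac1 0.17, and also without library 14 Penk was at 0.0897, Adora2a 0.15, Drd1 0.067 and Tac1 0.26. Rgs9 was at 0.50 with 24 libraries, which include 33B with Rgs9 at 80.7 CPM, and Tac1 at 0.0285 without lettered ones. In KD EE against KD SH, Drd1 was at -0.0617, -0.0646 and -0.0612 with 22, 22 but 14 and 24 libraries, Rgs9 at -0.042 without lettered libraries and at -0.13 and -0.37 with the covariate, and Tac1 at 0.14 with it. In WT SH against KD SH, with the covariate and without library 14, Penk was at -0.0839, Adora2a -0.0755, Ppp1r1b -0.076, Rgs9 -0.0523 and Tac1 -0.32. Ppp1r1b was at -0.0664 with 22 libraries but 14, and Tac1 at -0.0424, -0.37 and -0.0435 with 22, 22 but 14 and 24. Leaving out one library in turn moved WT EE against WT SH to -0.47 to 0.14 (Penk), -0.87 to 0.36 (Adora2a), -0.33 to 0.057 (Drd1), -0.33 to 0.12 (Rgs9) and -0.16 to 0.34 (Tac1), KD EE against KD SH to -0.021 to 0.93 (Adora2a), -0.11 to 0.19 (Drd1), -0.0299 to 0.16 (Drd2) and -0.0417 to 0.0908 (Rgs9), and WT SH against KD SH to -0.07998 to 0.52 (Penk), -0.059 to 1.16 (Adora2a), -0.0212 to 0.29 (Ppp1r1b), -0.0137 to 0.43 (Rgs9) and -0.31 to 0.18 (Tac1). WT EE against KD EE for Adora2a ran from -0.63 to 0.31. The cause was not tested, except that leaving out library 14 or 8 removes their own values. No paired analysis was possible because groups share no replicate numbers. Low counts limit Adora2a, with 12 to 282 per library, and one library cannot give a spread for library 14.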
